A study of Mus musculus with 6 samples.

Results

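The genes described here encode glutathione enzymes and the antioxidant enzymes that work beside them, 38 genes in all, read in bone marrow of female mice from a pair of crosses. A gene was read through its probe sets, each a group of short probes for a transcript, where the array's annotation gives the probe set that symbol and no other. Of the 38 genes, 35 were measured in this way, by 62 of the 45037 probe sets tested, among 18193 genes in all. Prdx5 and Prdx6 have no probe set with a single symbol in the tables used here, and the 5 probe sets that name Prdx1 also name another gene, so these 3 peroxiredoxin genes were not read. The marrow came from adult (AKR/J x FVB/NJ)F1 mice, 3 arrays, called AKR F1 here, and from adult (DBA/2J x FVB/NJ)F1 mice, 3 arrays, called DBA F1 here. Both groups carry an FVB/NJ copy of each nuclear gene beside a copy from AKR/J or from DBA/2J, and no treatment other than Avertin anaesthesia at death is given. The study asked which transcripts differ at baseline between these genotypes. No label says whether an array held 1 animal or a pool, so p-values measure only the spread between these samples, which may be technical. Values are log2 expression values, and a difference is the AKR F1 mean less the DBA F1 mean. Levels of different genes are not set against each other, because each probe set has its own brightness.

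Glutathione is a tripeptide made by glutamate-cysteine ligase, whose catalytic and modifier subunits are encoded by Gclc and Gclm, and by glutathione synthetase, encoded by Gss. Glutathione transferases join it to reactive molecules, glutathione peroxidases spend it to remove peroxides, and glutathione reductase, encoded by Gsr, restores it. Peroxiredoxins remove peroxides with the help of thioredoxin, while superoxide dismutases and catalase act without a thiol cofactor. Many of these genes are known targets of the transcription factor NRF2, which binds the antioxidant response element together with small MAF proteins. In marrow the system is known for protecting developing red cells, which handle much iron and oxygen, and phagocytes, which make oxidants.

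The arrays were alike in scale, with medians from 5.14 to 5.19, and markers of marrow were high in both groups, such as Alas2 of red cell precursors (13.27 in AKR F1 and 12.93 in DBA F1, means) and Ngp of neutrophils (14.44 and 14.40). An exception was the alpha globin gene Hba-a1, whose single-symbol probe set lay at 3.70 and 3.68, next to the lower quartile of all values (3.72). Several measures outside the antioxidant genes moved with the groups. Fits with the array controls as covariates are given beside the counts below, and the part of the cell type markers was not tested. The mean 3 prime minus 5 prime difference of actin, Gapdh and the spiked poly-A controls was 1.25 to 2.03 in AKR F1 and 1.03 to 1.23 in DBA F1, and the mean of the hybridization controls was 9.74 to 9.95 and 10.27 to 10.72. Of 8 measured red cell markers 3 were higher in AKR F1 and none lower, with list means of 11.14 to 11.16 against 10.79 to 10.99. Of 8 macrophage markers the 3 C1q chains were higher and none was lower (10.06 to 10.28 against 9.76 to 9.97), and of 10 neutrophil markers only Elane was higher (13.35 to 13.44 against 12.92 to 13.34). Of 8 skeletal muscle markers 5 were lower and none higher, with list means of 7.49 to 8.63 against 9.37 to 12.28. Of 5 T and NK cell markers 2 were higher, of 5 megakaryocyte markers 1 was higher, of 7 B cell markers 1 was higher and 2 were lower, and none passed among 6 markers of eosinophils, basophils and mast cells or 6 of stroma. In whole marrow, fewer cells of a type and less RNA per cell cannot be told apart.

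**Figure D1:**
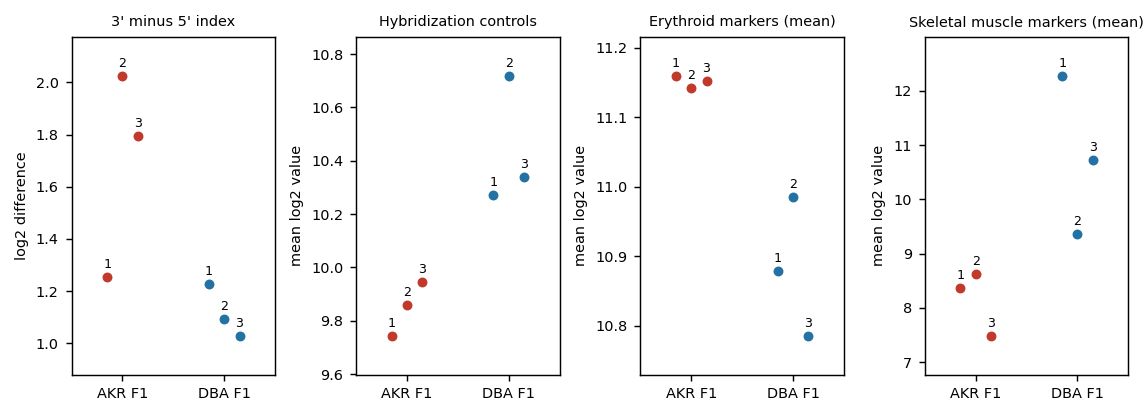
Control and marker measures of each array, with AKR F1 in red, DBA F1 in blue and the replicate number above each point. The vertical axes are in log2 units and show the mean 3 prime minus 5 prime difference of 6 control transcripts, the mean of 9 hybridization control probe sets, and the means of 8 red cell and 8 skeletal muscle marker genes. In every panel the AKR F1 arrays lie on one side of the DBA F1 arrays, most narrowly for the 3 prime minus 5 prime index, where AKR F1 replicate 1 stood at 1.25 and DBA F1 replicate 1 at 1.23.

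Each antioxidant gene that passed the test was higher in AKR F1, and none was lower. The 6 genes were Gstm5, Gstp1 and Mgst3, which encode glutathione transferases, Gpx4, a glutathione peroxidase, Cbr1, a carbonyl reductase, and Ephx1, the microsomal epoxide hydrolase. Their differences lay between 0.33 and 0.53, and the other 29 measured genes did not pass, with differences from -0.29 to 0.48. The 6 genes are 17.1% of the 35 measured, against 15.2% of all 18193 genes past the same limma test in either direction. In the upward direction 9.2% of all genes passed and in the downward direction 6.04%. Of 11549 genes brighter than the median probe set 22.3% passed, and 33 of the 35 antioxidant genes, the called 6 among them, are that bright. Upward only, 6 of these 33 passed (18.2%) against 13.4% of the 11549, so the share of the antioxidant genes lay above the background upward and below it in either direction together. The median difference of the 35 genes was 0.18 against 0.06 over all genes, and 77.1% of them lay above 0 against 61.1% of all genes. The groups did not overlap in 17 of the 35 genes (48.6%, against 36.7% of all genes), with AKR F1 above in 14 (23% of all genes) and below in 3 (13.7% of all genes). Over the 62 probe sets 7 passed upward, where 5.57% of all probe sets did, and 2 downward, where 6.73% did. In a fit on probe sets above the median probe set alone, 10 of 53 antioxidant probe sets passed (18.9%), against 24.7% of 22518. The median difference and the overlap were not set against bright genes alone.

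The number of calls changed with the arrays in the fit, for these genes as for all genes. Without AKR F1 replicates 1, 2 and 3 the antioxidant genes past the test numbered 2, 1 and 0, while 7.67%, 3.77% and 4.36% of all genes passed. Without DBA F1 replicates 1, 2 and 3 they numbered 8, 2 and 4, while 17.9%, 8.71% and 11.8% of all genes passed. The count of 0 without AKR F1 replicate 3 stands beside 11 genes at an unadjusted p under 0.05 in limma. Over these 6 fits the differences of the 6 genes kept their sign: Gstm5 lay between 0.48 and 0.60, Gstp1 between 0.40 and 0.57 and Cbr1 between 0.38 and 0.42. With the 3 prime minus 5 prime index or the hybridization controls as a covariate none of the 35 genes passed limma, with 6 at an unadjusted p under 0.05 in each fit (21 and 2 of all genes passed), and the differences of the 6 genes stayed above 0 (0.27 to 0.63 and 0.31 to 0.58).

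**Figure D2:**
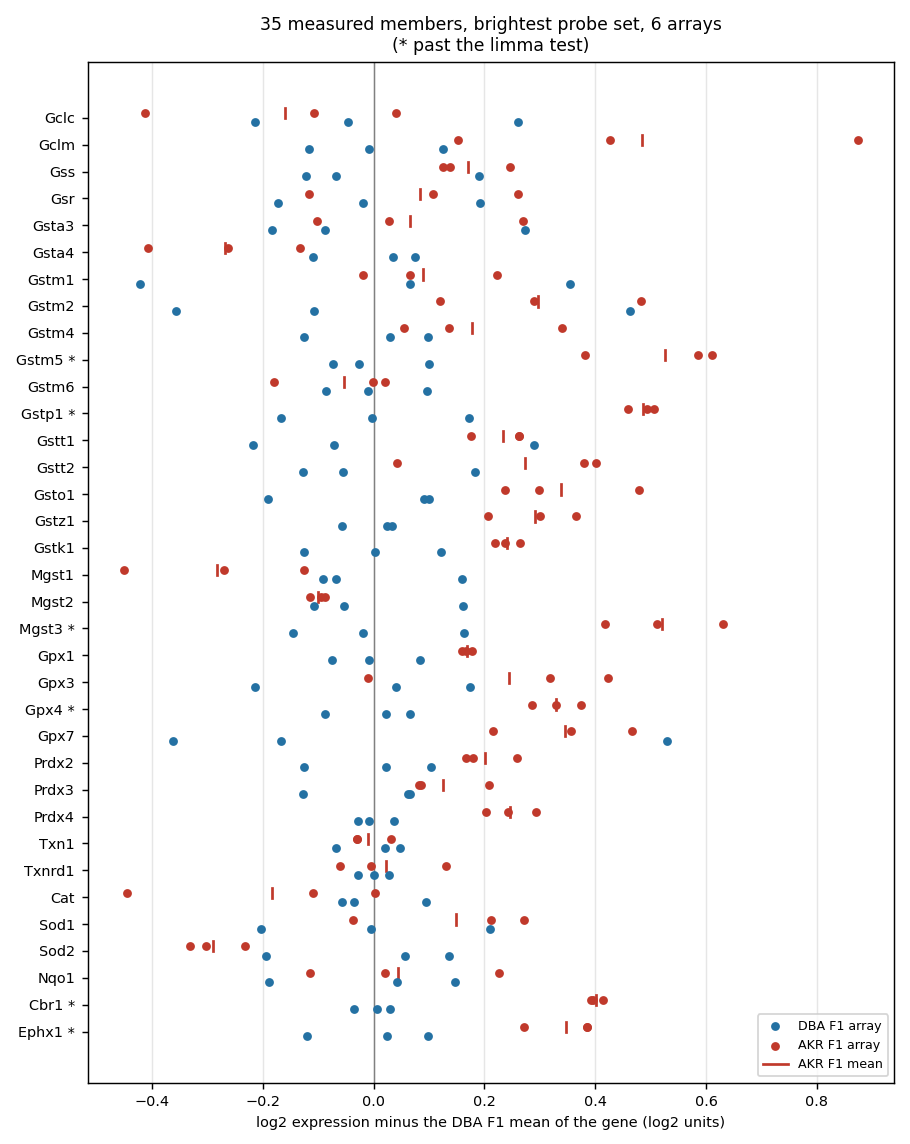
The log2 value of each of the 35 measured genes in each array, less the DBA F1 mean of that gene, with AKR F1 arrays in red, DBA F1 arrays in blue and the AKR F1 mean as a red bar. Genes stand in the order of their roles and an asterisk marks the 6 past the limma test. The AKR F1 points of Gstm5, Gstp1, Mgst3, Gpx4, Cbr1 and Ephx1 all lie to the right of the DBA F1 points, while those of Gsta4, Mgst1 and Sod2 all lie to the left.

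Among the genes of glutathione synthesis and recycling, none of 4 passed the test. The catalytic subunit gene Gclc stood at 10.07, 9.62 and 9.92 in AKR F1 replicates 1 to 3 and at 9.82, 9.99 and 10.29 in DBA F1. The groups overlapped and differed by -0.16 with a standard error of 0.15 (limma adjusted p = 0.53). Gss differed by 0.17 (95% interval -0.07 to 0.41) and Gsr by 0.08 (-0.22 to 0.38), and their arrays overlapped too. The modifier subunit gene Gclm gave opposite answers at its probe sets. At the brighter, 1418627_at, the AKR F1 arrays stood at 11.15, 10.43 and 10.70 and the DBA F1 arrays at 10.16, 10.40 and 10.27, and the difference of 0.48 did not pass (SE 0.17, limma adjusted p = 0.092 over genes). AKR F1 replicate 1 was the highest by far, and replicate 2 lay only just above the DBA F1 arrays. The difference was 0.29 without AKR F1 replicate 1 and 1.01 with the 3 prime minus 5 prime index as a covariate, neither past the test. At the other, 1439050_at, the values were 9.02, 8.67 and 9.12 against 9.38, 9.45 and 9.49. All AKR F1 arrays lay below all DBA F1 arrays there, and the difference of -0.50 passed the probe set test (SE 0.13, limma adjusted p = 0.038). Leaving out any single array lost this call, with adjusted p from 0.055 without DBA F1 replicate 1 to 0.10 without DBA F1 replicate 2. The stretch of transcript read by each probe set was not analysed here.

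The promoters of the antioxidant genes were searched for the core of the antioxidant response element, TGACNNNGC, on both strands in windows from 250 bases before to 50 bases after each start site in RefSeq (GRCm38.p6). Windows were found for 33 of the 38 genes, and 7 of these genes (21.2%) held a match, against 14.0% of 27025 genes. Counted by window, 7 of 44 (15.9%) held a match, against 12.4% of 32851 windows of the same length. Sequence outside the windows was not searched. Of the 6 genes past the gene test only Gstm5 held a match (16.7%, near the 14.0% of all genes). The others with a match were Gsta3, Gclm, Prdx1, Mgst1, Txnrd1 and Sod1, and only the Prdx1 match also holds the related AP-1 site TGACTCA. That site was sought within the matches alone, and the Gstm5 window below holds it outside its match. The windows of Gstm5 (chr3:107895604-107895903), Gclm (chr3:122245307-122245606) and Sod1 (chr16:90220512-90220811), all on the plus strand, are shown because these genes have both a match and a probe set past the test. Each runs 5′ to 3′ and the capitals mark the match, which in Gclm and Sod1 lies on the opposite strand.
Gstm5: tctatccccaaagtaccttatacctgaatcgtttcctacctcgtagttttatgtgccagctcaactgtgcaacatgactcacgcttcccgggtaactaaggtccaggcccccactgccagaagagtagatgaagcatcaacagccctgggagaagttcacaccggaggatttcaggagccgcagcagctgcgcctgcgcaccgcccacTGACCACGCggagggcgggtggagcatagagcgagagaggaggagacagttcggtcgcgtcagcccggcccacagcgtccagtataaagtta
Gclm: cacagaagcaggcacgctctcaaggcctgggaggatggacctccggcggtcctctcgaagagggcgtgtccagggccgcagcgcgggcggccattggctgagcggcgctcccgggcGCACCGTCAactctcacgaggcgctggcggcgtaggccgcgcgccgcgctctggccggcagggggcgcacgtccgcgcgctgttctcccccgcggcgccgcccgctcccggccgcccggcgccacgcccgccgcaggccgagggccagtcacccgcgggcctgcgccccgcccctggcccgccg
Sod1: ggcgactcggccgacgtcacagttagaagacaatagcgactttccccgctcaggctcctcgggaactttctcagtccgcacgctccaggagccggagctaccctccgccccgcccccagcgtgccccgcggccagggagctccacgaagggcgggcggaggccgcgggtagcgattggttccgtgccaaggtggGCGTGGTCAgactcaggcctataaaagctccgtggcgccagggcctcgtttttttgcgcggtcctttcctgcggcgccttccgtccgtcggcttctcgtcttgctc
The match begins 42 bases before the start site in Gstm5, 134 in Gclm and 56 in Sod1. It is a description of these letters and not evidence of binding, and strain differences within the windows were not analysed here.

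Cytosolic glutathione transferases fall into classes by sequence, and the mu class gave the largest difference among the antioxidant genes. Gstm5 stood at 10.58, 10.35 and 10.55 in AKR F1 and at 10.07, 9.94 and 9.89 in DBA F1, with no overlap. It was 1.44-fold higher in AKR F1 (difference 0.53, SE 0.10, adjusted p = 0.014 in limma), and of the 6 fits on 5 arrays only that without AKR F1 replicate 3 lost the call (adjusted p = 0.065). Gstm5 is the first of 7 mu-class genes that lie next to each other on chromosome 3, with no other protein-coding gene between them. Its neighbours did not pass: Gstm7 differed by 0.19, Gstm6 by -0.05, Gstm3 by 0.16, Gstm2 by 0.30, Gstm1 by 0.09 and Gstm4 by 0.18. Whether Gstm5 differed from its neighbours was not tested. Gstm1 was read by 4 probe sets, which differed by 0.05 to 0.14 and none of which passed. Mu-class genes are close copies, so a probe set can read more than 1 of them, in particular where the maker's name ends in _x_at or _s_at, as it does for 2 probe sets of Gstm1 and for the brighter of the 2 of Gstm3, the one used.

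The pi-class gene Gstp1, whose product is an abundant transferase in many tissues, stood at 11.58, 11.62 and 11.61 in AKR F1 and at 11.29, 11.11 and 10.95 in DBA F1. The AKR F1 arrays were almost equal, while the DBA F1 arrays were more spread and lay below them. Gstp1 was 1.40-fold higher (difference 0.49, SE 0.10, adjusted p = 0.020 in limma). Without DBA F1 replicate 2 the adjusted p was 0.055, and without AKR F1 replicates 1, 2 and 3 it was 0.055, 0.080 and 0.077. In the theta class Gstt1 differed by 0.23 and Gstt2 by 0.27, neither past the test. Gstz1, of the zeta class, which acts in tyrosine breakdown, stood at 6.83, 6.67 and 6.77 against 6.49, 6.50 and 6.41, without overlap but not past the test (0.29, adjusted p = 0.057 in limma). The mitochondrial kappa-class gene Gstk1 differed by 0.24 (adjusted p = 0.12 in limma), also without overlap. In the alpha class Gsta4, which acts on lipid aldehydes, had all AKR F1 arrays below all DBA F1 arrays (difference -0.27, adjusted p = 0.12 in limma). Both probe sets of Gsta3 lay below the lower quartile of all values, at means from 2.86 to 3.15.

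Gsto1, the omega-class transferase, was another gene whose probe sets pointed apart. At the brighter, 1416531_at, it averaged 9.11 ± 0.13 in AKR F1 and 8.77 ± 0.17 in DBA F1 (SD, n = 3 each). At 1456036_x_at it averaged 8.48 ± 0.10 against 8.85 ± 0.13. Neither pair of groups overlapped, in opposite directions. The differences were 0.34 (adjusted p = 0.081 in limma over genes) and -0.37 (adjusted p = 0.054 in limma over probe sets), and neither passed.

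The microsomal transferases are membrane proteins of a separate family. Mgst3, which also has peroxidase activity, stood at 12.04, 11.95 and 12.16 in AKR F1 and at 11.38, 11.51 and 11.69 in DBA F1. All AKR F1 arrays lay above all DBA F1 arrays, and the gene was 1.43-fold higher (difference 0.52, SE 0.11, limma adjusted p = 0.018). A second, dim probe set of Mgst3 gave 0.26 and missed the threshold. The call was lost without AKR F1 replicate 1, 2 or 3 and without DBA F1 replicate 2, with adjusted p of 0.055, 0.053, 0.079 and 0.053. Mgst1 went the other way without passing, at 11.72, 11.40 and 11.58 against 12.01, 11.76 and 11.78 (difference -0.28, adjusted p = 0.14 in limma). Mgst2 differed by -0.10 and overlapped.

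Of the glutathione peroxidases, Gpx4, which reduces lipid hydroperoxides in membranes, stood at 12.51, 12.55 and 12.60 in AKR F1 and at 12.25, 12.29 and 12.14 in DBA F1. Its groups were narrow and did not overlap, and it was 1.26-fold higher (difference 0.33, SE 0.09, adjusted p = 0.037 in limma). Among the 6 calls it was the least secure when arrays were left out, while Ephx1 had the higher adjusted p (0.041 in limma). The second probe set of Gpx4 differed by 0.24 without passing, and leaving out any single array lost the call, with adjusted p from 0.051 without DBA F1 replicate 1 to 0.13 without AKR F1 replicate 3. Gpx1, the main cytosolic peroxidase of red cells, stood at 14.02, 14.00 and 14.01 against 13.77, 13.93 and 13.84, near the top of the scale. Its groups did not overlap and its difference of 0.17 did not pass (SE 0.09, adjusted p = 0.22 in limma). Gpx3, the plasma form, differed by 0.24, and Gpx7, of the endoplasmic reticulum, by 0.35 with a standard error of 0.21, and both overlapped.

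No measured peroxiredoxin or thioredoxin gene passed. Prdx2, an abundant peroxiredoxin of red cells, stood at 13.20, 13.21 and 13.29 in AKR F1 and 13.05, 13.13 and 12.90 in DBA F1 at its brighter probe set, which left 0.20 between the means (SE 0.09, limma adjusted p = 0.18). Its other probe set gave -0.17, and the mean over both was 0.02, neither past the test. Prdx4, the peroxiredoxin of the endoplasmic reticulum, had the tightest groups of the family, at 9.84, 9.88 and 9.93 against 9.67, 9.61 and 9.63 (difference 0.25, adjusted p = 0.078 in limma). The other 3 probe sets of Prdx4 differed by -0.21 to -0.07, and the one at -0.21 lay below the lower quartile of all values. Prdx3, of mitochondria, differed by 0.12, its groups just failing to overlap. The cytosolic thioredoxin gene Txn1 differed by -0.01 with a 95% interval from -0.20 to 0.18, and Txnrd1, its reductase, by 0.02 with an interval from -0.18 to 0.22. Their dimmer probe sets gave 0.26 for Txn1 and -0.22 and -0.31 for Txnrd1, none past the test. The probe set at -0.31 lay below the lower quartile of all values.

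Superoxide dismutase 1, the copper and zinc enzyme of the cytosol, was read by 5 probe sets, and 2 of them passed the probe set test in opposite directions. At 1451124_at the AKR F1 arrays stood at 11.39, 11.42 and 11.60 and the DBA F1 arrays at 10.56, 11.05 and 10.84, with all AKR F1 arrays higher (difference 0.66, SE 0.14, adjusted p = 0.020 in limma). At 1440222_at they stood at 5.61, 5.17 and 5.38 against 6.14, 5.98 and 6.18, with all AKR F1 arrays lower (difference -0.71, SE 0.13, adjusted p = 0.012 in limma). Such calls in both directions were found in 85 of the 9010 genes with several probe sets (0.943%). The brightest probe set, 1459976_s_at, at 11.36, 11.61 and 11.67 against 11.19, 11.61 and 11.39, overlapped and differed by 0.15 (SE 0.13, adjusted p = 0.49 in limma over genes). A dimmer one, 1435304_at, differed by -0.39 without passing, and the fifth lay below the lower quartile. The upward call was lost without AKR F1 replicate 2 (adjusted p = 0.064) or 3 (0.085), and the downward call without AKR F1 replicate 3 (0.056). With probe sets ending in _s_at or _x_at left out, Sod1 is read by 1451124_at and passed the gene test (difference 0.66, adjusted p = 0.017 in limma). With the 3 prime minus 5 prime index as a covariate the downward difference was -0.41 and the upward one 0.66, with the hybridization controls they were -1.04 and 1.21, and none of these passed. No direction can therefore be given for Sod1 as a gene.

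**Figure D3:**
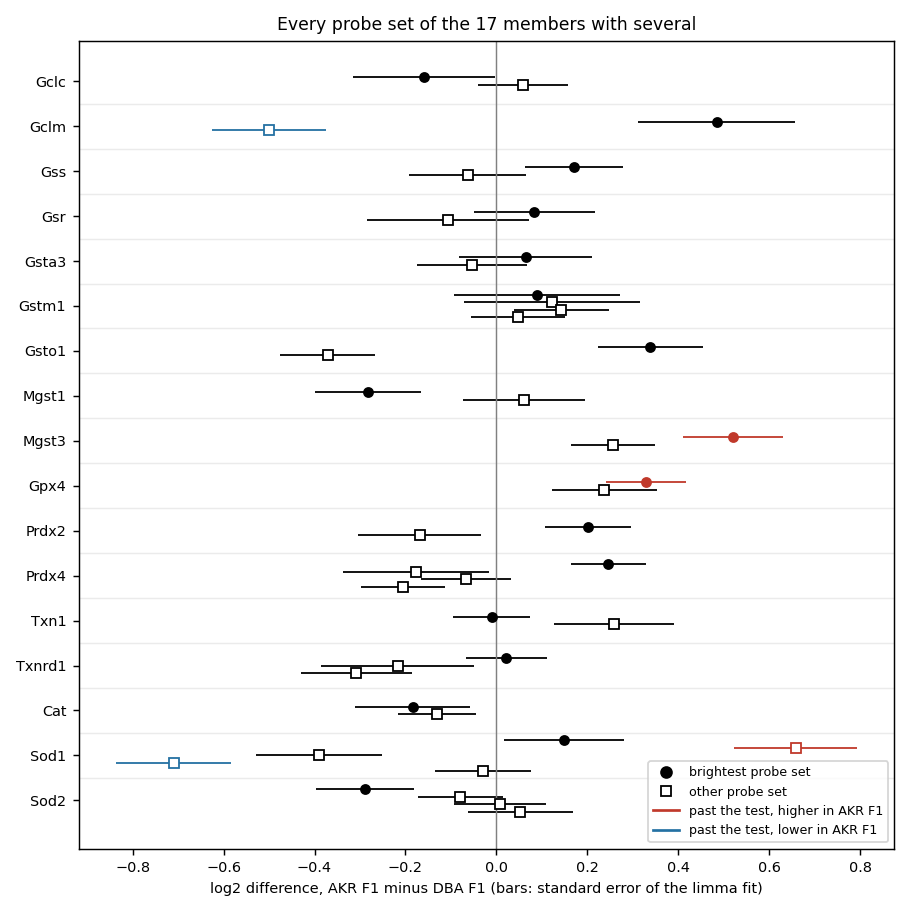
The log2 difference, AKR F1 minus DBA F1, of every probe set of the 17 genes that have several, with the standard error of the limma fit as bars. Filled circles are the brightest probe set of a gene, open squares the others, red marks those past the test and higher in AKR F1, and blue those past the test and lower. Sod1 has a red and a blue probe set, at 0.66 and -0.71, and in 13 of the 17 genes the probe sets lie on both sides of 0. Only in Sod1 did probe sets pass in both directions. The 13 include genes with probe sets below the lower quartile of all values, such as Gsta3 and Mgst1. The share of such genes among all genes with several probe sets was not worked out.

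The mitochondrial manganese enzyme Sod2 had its AKR F1 arrays at 9.58, 9.68 and 9.61 and its DBA F1 arrays at 9.72, 10.05 and 9.97. The groups did not overlap, and the difference of -0.29 did not pass (SE 0.11, adjusted p = 0.10 in limma). It did pass without DBA F1 replicate 1 (-0.39, adjusted p = 0.030) and with array weights (-0.33, adjusted p = 0.042). The other 3 probe sets of Sod2 differed by -0.08 to 0.05. Catalase, encoded by Cat, overlapped between groups at its brighter probe set (difference -0.18), and at the other all AKR F1 arrays lay below all DBA F1 arrays by a small margin (difference -0.13), with neither past the test.

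The quinone, carbonyl and epoxide enzymes held 2 of the 6 calls. Cbr1, which reduces carbonyl compounds and quinones with NADPH, had narrow groups far apart, at 8.11, 8.11 and 8.13 in AKR F1 and 7.72, 7.75 and 7.68 in DBA F1. It was 1.32-fold higher (difference 0.40, SE 0.08, adjusted p = 0.016 in limma), and the call was lost without AKR F1 replicate 2 (adjusted p = 0.065) or 3 (0.071). Ephx1, which opens reactive epoxides, stood at 7.27, 7.27 and 7.15 against 6.98, 6.91 and 6.76, without overlap. It was 1.27-fold higher (difference 0.35, SE 0.09, adjusted p = 0.041 in limma) and, of the fits on 5 arrays, passed only in that without DBA F1 replicate 1, with adjusted p from 0.082 to 0.14 in the others. Nqo1, the quinone reductase often used as a readout of NRF2, stood at 7.26, 7.12 and 7.47 against 7.05, 7.28 and 7.39. Its groups overlapped, with a difference of 0.04 and a 95% interval from -0.24 to 0.33.

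The 6 genes past the gene test lie on 5 chromosomes, Mgst3 and Ephx1 on chromosome 1, Gstm5 on 3, Gpx4 on 10, Cbr1 on 16 and Gstp1 on 19, while the 35 measured genes lie on 14. Gstm5, Gstp1, Cbr1 and Ephx1 are each read by 1 probe set here, which leaves no other to set beside it. Whether the strains differ in sequence where the probes bind was not analysed, and such a difference can shift a probe set by itself.

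Genes around these enzymes were read from a list of 79, of which 74 were measured. Of these 6 were higher (8.11%, against 9.2% of all genes) and 6 were lower (8.11%, against 6.04%), 62 did not pass, and the median difference was 0.08. In a fit on probe sets above the median probe set alone, 12 of 62 measured genes of the list passed in either direction (19.4%), against 25.6% of 11549 genes. The thioredoxin of mitochondria, Txn2, stood at 9.95, 9.99 and 9.86 in AKR F1 and 9.29, 9.24 and 9.06 in DBA F1. Its groups lay far apart for their spread, and it was 1.67-fold higher (difference 0.74, SE 0.10, adjusted p = 0.0047 in limma). All 3 probe sets of Txn2 passed, at 0.62 to 0.74, and no single array, when left out, lost the call of Txn2, Ccs or Me1. Ccs, the chaperone that loads copper onto superoxide dismutase 1, stood at 8.60, 8.71 and 8.66 against 8.04, 8.05 and 8.11 and was 1.51-fold higher (adjusted p = 0.0060 in limma).

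Me1, the cytosolic malic enzyme that makes NADPH, was lower, at 6.97, 7.26 and 7.30 in AKR F1 against 8.16, 7.78 and 7.94 in DBA F1 by a log2 difference of -0.79 (SE 0.13, limma adjusted p = 0.0096). The other probe set of Me1 gave -0.14 and missed the threshold. Of 8 genes that control NRF2, 2 were lower and none higher, where 6.04% and 9.2% of all genes were. Of the 8 differences 5 lay above 0. Cul3, the scaffold of the ligase that removes NRF2, differed by -0.56, with all 5 of its probe sets below 0 and 3 of them past the test, and Bach1, which competes with NRF2 for its sites, by -0.37 (adjusted p = 0.016 and 0.026 in limma). Nfe2l2, which encodes NRF2 itself, differed by -0.18 and its adaptor Keap1 by 0.04, and neither passed (adjusted p = 0.28 and 0.82 in limma). The small MAF genes Mafg, Mafk and Maff differed by 0.44, 0.37 and 0.10 and did not pass (adjusted p = 0.063, 0.064 and 0.68 in limma). In Mafg and Mafk all AKR F1 arrays lay above all DBA F1 arrays.

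Among the genes of glutathione supply and turnover, Slc3a2 was higher by 0.46. It encodes a heavy chain shared by several amino acid transporters, the cystine transporter among them. Slc7a11, the light chain of the cystine transporter, lay at a low level of 3.68 against 3.80. Its difference of -0.12 did not pass (adjusted p = 0.51 in limma). Oplah, which recycles oxoproline to glutamate, was higher by 0.54, at a low level of 4.74 against 4.20. Chac2, which degrades glutathione, was lower, with a difference of -0.41. Blvrb, the biliverdin reductase of red cells, differed by 0.60 and Fth1, the ferritin heavy chain, by 0.35, beside red cell marker means that were also higher in AKR F1. The adjusted p over genes was 0.035 for Blvrb and 0.045 for Fth1 in limma. The other probe set of Fth1 differed by 0.19. Neither probe set of Fth1 passed the probe set test (adjusted p = 0.055 and 0.22 in limma). Msrb3, a methionine sulfoxide reductase, differed by -0.57 and Gpx8, a peroxidase of the endoplasmic reticulum, by -0.60, beside muscle marker means that were lower in AKR F1. The markers' part in the differences of Blvrb, Fth1, Msrb3 and Gpx8 was not tested. In fits without AKR F1 replicates 2 and 3 the count of 12 became 3 and 4 (4.05% and 5.41% of the 74), while 3.77% and 4.36% of all genes passed.

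**Figure D4:**
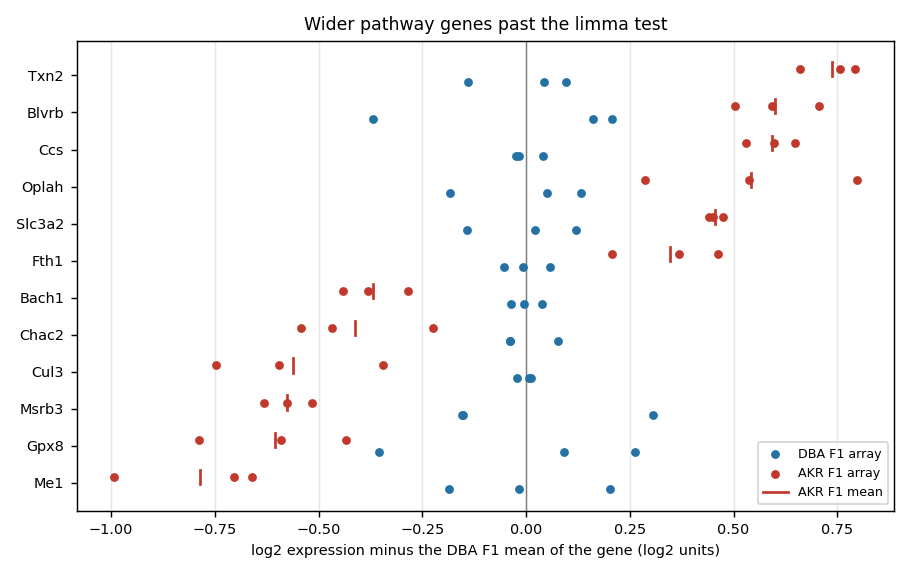
The log2 value in each array of the 12 genes of the wider list past the limma test, less the DBA F1 mean of each gene, with AKR F1 arrays in red, DBA F1 arrays in blue and the AKR F1 mean as a red bar. The 6 genes at the top, from Txn2 (0.74) to Fth1 (0.35), have all AKR F1 arrays above the DBA F1 arrays, and the 6 at the bottom, from Bach1 (-0.37) to Me1 (-0.79), have them all below.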

How the data were processed

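RNA of snap-frozen marrow was extracted with Trizol and hybridised to Affymetrix arrays, per the labels' protocols. The authors deposited log2 values, from 2.26 to 14.88, for 45101 probe sets in 6 arrays. RMA and MAS5 are named, with no role, per the submitters' processing notes, and the normalization between arrays and scan batches are not given in the sources used here.

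Groups and replicate numbers come from the sample titles. After removal of 64 control probe sets 45037 were tested; the platform annotation gives 1 symbol to 34945, several to 932 and none to 9160. Each gene was read from its brightest single-symbol probe set by its mean over all 6 arrays. Groups were compared by lmFit and eBayes (limma 3.58.1 in R 4.3.3), two-sided, with Benjamini-Hochberg adjustment over all genes or all probe sets and a threshold of 0.05, and the procedure was tested on simulated data. Error bars and SE are those of this fit. The 3 prime to 5 prime index averages actin, Gapdh and 4 spikes. Values in every array are given for antioxidant genes past the gene or probe set test and for some named for their role in marrow; those of Gstz1, Mgst1, Prdx4, Nqo1 and, of the wider list, Txn2, Ccs and Me1 were added after their values were seen. Of the wider list, up to 10 genes past the test with the largest differences were to be named; Fth1 and Bach1 were added so that all 12 are. The antioxidant genes, the lists and the alternatives were chosen with earlier results of these data known. Same-numbered arrays did not deviate together (correlations of 0.01, -0.06 and 0.07 over genes), and unlike-numbered ones gave -0.16 to 0.13. With 3 arrays per group this cannot settle whether the numbers pair samples, and no label says that they do. Alternatives were other normalizations, filters, variance models, thresholds, covariates, a replicate block and leaving out each array.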

Additional observations from a re-analysis of the deposited data

How the results depend on the processing

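The count of 6 antioxidant genes became 0 at an adjusted p threshold of 0.01 (14 at an unadjusted p under 0.05 in limma), 10 at 0.1, 0 in a test against a 1.2-fold change and 0 with either covariate. The count of 9 antioxidant probe sets (7 higher and 2 lower, 14.5% against 12.3% of all probe sets) became 0 at the threshold of 0.01, against a 1.2-fold change and with either covariate, with 21, 6, 9 and 9 at an unadjusted p under 0.05 in limma. Among probe sets above the median probe set these shares were 18.9% and 24.7%. Leaving out 1 array gave 0 to 8 genes, 0 to 10 probe sets, 3 to 13 of the wider list (12 with all arrays), 685 to 3248 of all genes (2771 with all arrays) and 1683 to 5581 of all probe sets (5541 with all arrays). The wider list had 3 at the threshold of 0.01, 1 against a 1.2-fold change and 0 with either covariate (13 and 11 at an unadjusted p under 0.05 in limma). All genes numbered 526 at 0.01, 4243 at 0.1, 237 against a 1.2-fold change, and 21 and 2 with the index and the hybridization controls as covariates; all probe sets numbered 1214, 8489, 901, 112 and 12. Both covariates separated the groups, so the parts of covariate and group cannot be told apart in these fits. The cause of the lost calls was not tested. With the replicate block, which the pairing check neither bears out nor excludes, 4 antioxidant genes, 7 antioxidant probe sets, 7 of the wider list, 2357 genes and 5321 probe sets passed. Quantile normalization, median centring, a filter on dim probe sets, a variance trend, and leaving out probe sets ending in _s_at or _x_at gave 5 to 7 antioxidant genes, and array weights gave 9.

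Signs turned in differences that had not passed. Averaging the probe sets of a gene put Sod1 at -0.0645, Gclm at -0.00749, Gsto1 at -0.0165 and Gsr at -0.0114. With the 3 prime to 5 prime index as a covariate Sod1 was at -0.00363, Gclc at 0.21 and Cat at 0.0647, and with the hybridization controls Gsr was at -0.0820 and Sod2 at 0.00727. Leaving out 1 array put Gsr between -0.00461 (without AKR F1 replicate 1) and 0.184 (without AKR F1 replicate 2), and at -0.00296 without DBA F1 replicate 3. The number of arrays limits the precision of every value.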
